A study of Mus musculus with 6 samples.

Results

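Embryoid bodies grown from 2 mouse embryonic stem cell lines of the same genotype, TKO_26 and TKO_29, were compared with each other across all genes measured. The comparison took the 4 arrays whose labels name a Tet triple knockout (TKO) line, 2 of TKO_26 and 2 of TKO_29, out of 6 arrays in the series. The other 2 arrays were wild type (WT). The WT arrays were no part of the contrast and are given beside it as background. The WT arrays did enter the scaling and the spread behind the p-values. All cells had a mixed 129/C57BL6 background. They were grown as hanging drops for 2 days and then in suspension for 8 days, throughout without LIF, and were collected at day 10. Each TKO line is 1 line, so a difference between the lines cannot be assigned to genotype, to the clone or to its history in culture. The series text calls the arrays of a group technical replicas, so p-values here measure the spread between arrays, which may be technical. The purpose of placing independent knockout lines beside WT was, per the series text, a comparison of expression in differentiating embryoid bodies.

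TET1, TET2 and TET3 are dioxygenases that oxidise 5-methylcytosine, the first step of active DNA demethylation. Embryoid bodies are aggregates in which stem cells leave pluripotency and form derivatives of the germ layers. The mix of cell types in such aggregates varies between lines and cultures, and in such bulk RNA fewer cells of a type and less RNA per cell cannot be told apart.

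Cy3-labelled cRNA was read on 1-colour Agilent arrays. Levels are log2 processed signals minus the 75th percentile of the array, so that 0 is a bright probe and 1 unit is a 2-fold step. From 38.4% to 55.8% of spots per TKO array were well above background. TKO_26 replicate 1 stood apart, with the lowest share (38.4%) and a median coefficient of variation of 9.63% between spots of a repeated probe, against 4.23% to 5.23% on the other 5 arrays. TKO_29 replicate 1 stood apart in brightness, with a 75th percentile of 2208 against 507 to 1130 and 2528 saturated spots against 812 to 1476 on the others. The position digits in the names of the scanner output were read here as column and row. By them the lines lay in separate rows of 1 column, TKO_26 in rows 1 and 2 and TKO_29 in rows 3 and 4. Line and array position therefore cannot be told apart. The WT arrays lay in rows 1 and 2 of another column. Features entered the test where either line had both of its arrays well above background, which left 23326 features, of which 14388 were genes with a symbol.

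The count of genes that differed beyond the spread between arrays turned on the test's settings, and limma as set out here called 91 features at an adjusted p under 0.05 and a 2-fold difference. Of these, 85 were higher in TKO_26 (0.364% of the features tested) and 6 were lower (0.0257%). Only 15 of the 91 had a symbol, 10 higher and 5 lower. Every adjusted p of a called feature lay between 0.0489 and 0.0498, just under the threshold, and 5229 features had an unadjusted p under 0.05. The count turned on the arrays used. The spread was estimated from all 6 arrays, WT included. On the 4 TKO arrays alone, limma called 0 features (5091 at an unadjusted p under 0.05). limma called none without TKO_26 replicate 1 (3966 at an unadjusted p under 0.05), without TKO_29 replicate 1 (3139) or without TKO_29 replicate 2 (4231). Without TKO_26 replicate 2, 594 features were called higher and 264 lower. When the replicate number was added as a block, limma called 0 features (4526 at an unadjusted p under 0.05). With 2 arrays against 2, a two-sided exact permutation test of 1 gene cannot go below 0.333.

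Single genes were therefore also described by a rule of size, in which the nearest arrays of the lines had to lie at least 2-fold apart. This held for 558 features higher in TKO_26 (2.39%) and 98 lower (0.42%). Among genes with a symbol the split was 75 higher and 76 lower. By line means alone, 1569 features were at least 2-fold higher (6.73%) and 496 at least 2-fold lower (2.13%). Of 14493 features measured on all 4 TKO arrays without saturation, 940 (6.49%) differed at least 2-fold between line means. Over the same features, the arrays of TKO_26 differed at least 2-fold at 569 (3.93%) and the arrays of TKO_29 at 76 (0.524%). The SD of the log2 difference was 0.54 between lines, 0.42 between the arrays of TKO_26, 0.24 between those of TKO_29 and 0.33 between those of WT.

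**Figure D1:**
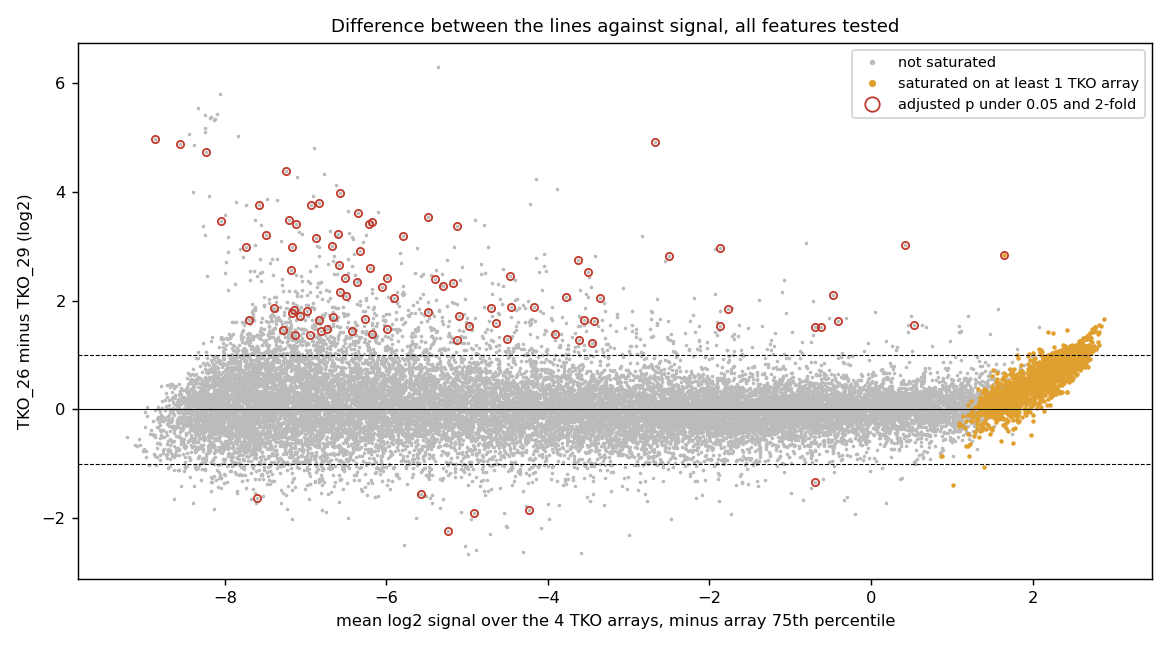
Each point is 1 of the 23326 features tested, with its mean log2 signal over the 4 TKO arrays on the horizontal axis and the log2 difference TKO_26 minus TKO_29 on the vertical axis; dashed lines mark 2-fold. The 91 called features (circles) lie mostly above 0, and features saturated on at least 1 TKO array (orange) climb at the bright end.

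The bright end of the arrays carried no usable fold, and TKO_29 replicate 1 had the most saturated spots. Among features saturated on all 4 TKO arrays (826) the median difference was 0.96, against 0.03 among the 21236 features saturated on none. Of the 1569 features at least 2-fold higher in TKO_26, 315 were saturated on at least 1 TKO array. Genes saturated on both arrays of both lines are given no fold here, and medians of groups are over unsaturated features unless stated.

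The targeted genes were read first. The brightest probe of Tet1 gave -2.01 and -2.17 in TKO_26, -2.69 and -2.81 in TKO_29, and -0.93 and -1.21 in WT. Tet2 gave -3.84 and -3.77 in TKO_26, -4.73 and -4.51 in TKO_29, and -2.84 and -2.59 in WT. For both genes WT was highest, TKO_26 lay between and TKO_29 was lowest, with no overlap between groups. Tet3 gave -4.52 and -5.45 in TKO_26, -6.86 and -6.44 in TKO_29, and -5.87 and -6.20 in WT. On this probe TKO_26 was above WT and TKO_29 below it, whereas both other Tet3 probes had WT above both lines. TKO_26 was higher than TKO_29 by 0.66 for Tet1 (SE 0.16, limma adjusted p = 0.111), by 0.81 for Tet2 (SE 0.16, limma adjusted p = 0.0839) and by 1.67 for Tet3 (SE 0.36, limma adjusted p = 0.0961). None passed the test. A second Tet1 probe went the other way, with a difference of -0.31, and further probes gave 0.25 for Tet2, 0.34 for Tet3 and 1.82 for another Tet3 probe, which no TKO array placed above background. No source used here places these probes relative to the deleted parts, so the values do not check the knockout.

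The gene with the largest called difference was Syt10, a synaptotagmin of the family of calcium sensors for vesicle exocytosis. Its levels were 0.36 and -0.79 in TKO_26 and -4.91 and -5.35 in TKO_29. WT stood at -0.19 and -1.04, beside TKO_26. It was 30.1-fold higher in TKO_26 (log2 difference 4.91, SE 0.49, limma adjusted p = 0.0498), and TKO_29 alone was low. Rdh12, a retinol dehydrogenase, showed the same order. Its levels were -2.23 and -2.27 in TKO_26, -5.18 and -4.82 in TKO_29, and -2.44 and -2.35 in WT. The difference was 6.72-fold (log2 2.75, SE 0.16, limma adjusted p = 0.0489). Asic1, an acid-sensing ion channel of neurons, gave -4.14 and -4.28 in TKO_26, -5.73 and -5.75 in TKO_29, and -4.10 and -4.17 in WT. It was 2.89-fold higher in TKO_26 (limma adjusted p = 0.0489), again with WT beside TKO_26.

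For other called genes of this direction WT lay elsewhere. Acsm3, a mitochondrial acyl-CoA synthetase for medium-chain fatty acids, was at -5.56 and -5.31 in TKO_26, -7.13 and -7.05 in TKO_29 and -6.77 and -6.80 in WT. It was 3.15-fold higher in TKO_26 (limma adjusted p = 0.0489), with WT near TKO_29, and its dimmer probe gave a difference of 1.03 with 1 TKO_26 array below both of TKO_29. The zinc finger gene Zfp263 was at -3.16 and -3.28 in TKO_26, -4.53 and -4.67 in TKO_29 and -1.11 and -1.28 in WT. It was 2.60-fold higher in TKO_26 than in TKO_29 (limma adjusted p = 0.0498), and both lines lay below WT. A pair of genes with clone names were also called. 9930111J21Rik2 was at -5.22 and -5.62 in TKO_26, -8.38 and -9.26 in TKO_29 and -8.85 and -9.11 in WT (limma adjusted p = 0.0498). 4933438K21Rik was at -5.64 and -5.78 in TKO_26, -7.11 and -7.19 in TKO_29 and -7.20 and -7.03 in WT (limma adjusted p = 0.0489). In both, TKO_26 alone was high.

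A pair of further genes were far apart without passing the test. Zdhhc23, a palmitoyltransferase, was at -4.54 and -7.29 in TKO_26 and was not well above background in TKO_29 (-10.94 and -11.01) or WT (-9.06 and -10.34). The difference was at least 16.0-fold (limma adjusted p = 0.084), and the 2 arrays of TKO_26 were themselves far apart. Prm1, a protamine of sperm chromatin, was at -4.56 and -6.53 in TKO_26, at -9.22 and -9.62 in TKO_29, where it was not well above background, and at -5.69 and -6.47 in WT. The difference was at least 14.6-fold (limma adjusted p = 0.0768). Here and below, a bound sets the mean of the brighter line against the dimmer line's own signal or the array's detection floor, whichever was higher. The floor is the lowest signal among probes that passed the background test on the array. A spot can fail that test and still lie above the floor. For Prm1, Wdr11, Hivep1, Ttk, Kdm3b and Pifo the bound equals the measured difference, so it is no strict lower limit there.

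**Figure D2:**
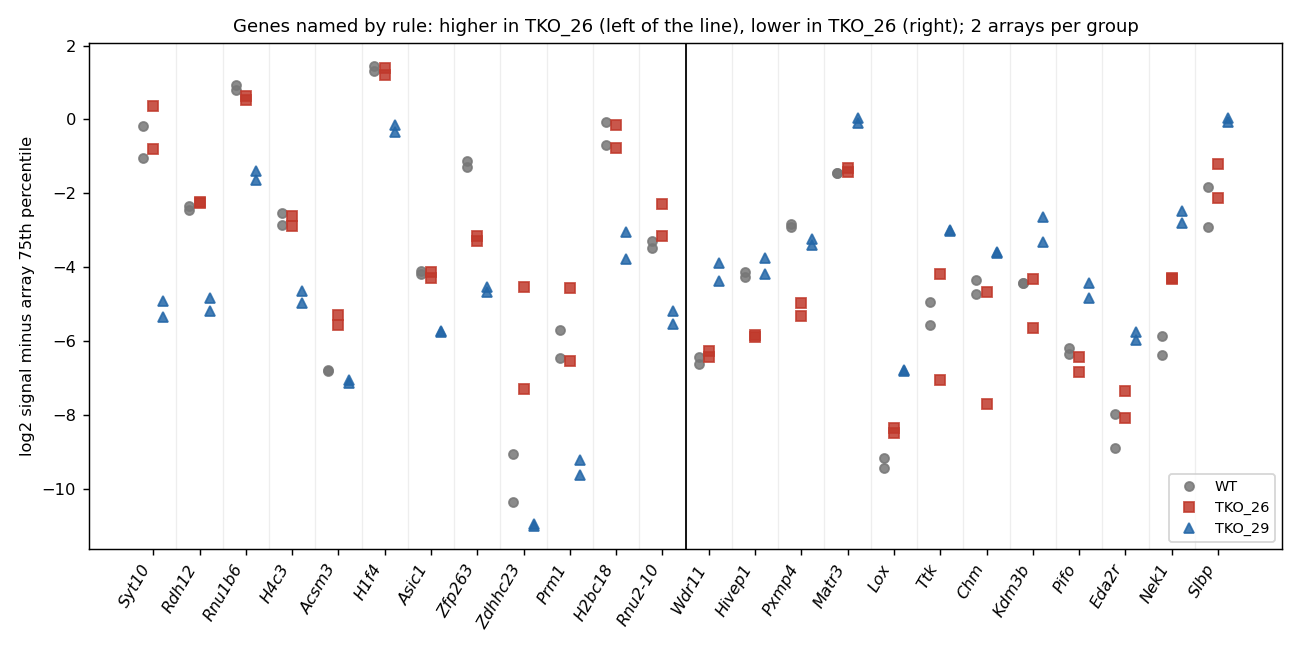
The log2 level (signal minus the array's 75th percentile) of the 24 genes named by rule on each of the 6 arrays, with 2 points per group, is shown for genes higher in TKO_26 (left of the line) and lower (right). All 24 were apart by the rule of size, so no TKO_26 point overlaps the TKO_29 points of its gene. WT lies beside TKO_26 for genes such as Syt10, Rdh12, H4c3, H1f4 and Matr3.

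By the limma test, 5 genes with a symbol fell in TKO_26 below their TKO_29 level, and for 3 of them WT lay beside TKO_26. Matr3, an RNA-binding protein of the nuclear matrix, was at -1.41 and -1.30 in TKO_26, -0.11 and 0.05 in TKO_29, and -1.44 and -1.46 in WT. It was 2.51-fold lower in TKO_26 (log2 difference -1.33, SE 0.13, limma adjusted p = 0.0489), and its dimmer probe gave -0.95. Wdr11, a WD-repeat protein of vesicle traffic, was at -6.27 and -6.44 in TKO_26, -4.37 and -3.88 in TKO_29, and -6.61 and -6.43 in WT. It was at least 4.70-fold lower in TKO_26 (limma adjusted p = 0.0489). Lox, the lysyl oxidase that cross-links collagen and elastin, was not well above background in TKO_26 (-8.35 and -8.48) or WT (-9.16 and -9.44) and stood at -6.81 and -6.77 in TKO_29. It was at least 2.12-fold lower in TKO_26 (limma adjusted p = 0.0489), and its dimmer probe gave -1.15.

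For the remaining pair TKO_26 was the line away from WT. Hivep1, a zinc finger protein that binds enhancers, was at -5.82 and -5.90 in TKO_26, -4.19 and -3.74 in TKO_29 and -4.12 and -4.26 in WT. It was at least 3.72-fold lower in TKO_26 (limma adjusted p = 0.0498). Pxmp4, a peroxisomal membrane protein, was at -5.33 and -4.96 in TKO_26, -3.23 and -3.39 in TKO_29 and -2.84 and -2.92 in WT. It was 3.58-fold lower in TKO_26 (limma adjusted p = 0.0489).

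Genes lower in TKO_26 by the rule of size included kinases and a histone demethylase, none past the test. Nek1, a NIMA-related kinase, was at -4.32 and -4.30 in TKO_26 and -2.79 and -2.48 in TKO_29 (3.20-fold, limma adjusted p = 0.0525), and its other probe gave -1.55. Ttk, the kinase of the spindle checkpoint, was at -7.05 and -4.17 in TKO_26 and -2.98 and -3.02 in TKO_29. Chm, the Rab escort protein, was at -7.71 and -4.66 in TKO_26 and -3.58 and -3.63 in TKO_29. Both were well above background on 1 of the 2 arrays of TKO_26, and TKO_26 replicate 1 was the lower. The differences were at least 6.10-fold and 5.15-fold (limma adjusted p = 0.202 and 0.219). Kdm3b, a demethylase of histone H3 lysine 9, was at -5.65 and -4.32 in TKO_26 and -3.31 and -2.65 in TKO_29, at least 4.02-fold lower (limma adjusted p = 0.115). Its other probe, not well above background, gave 1.92. Pifo, of the primary cilium, and Eda2r, a receptor for ectodysplasin A2, were at least 4.00-fold and 3.51-fold lower (limma adjusted p = 0.0505 and 0.0961). A second Eda2r probe gave -0.31, and a second Pifo probe, not well above background, gave 1.90.

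Replication-dependent histone genes, a group chosen after their values were seen, were often higher in TKO_26. Their mRNAs are made in S phase and end in a stem-loop bound by SLBP instead of a poly(A) tail. Of 39 such genes tested, H1f4 and H4c3 rose by the test, none fell, and 13 were higher in TKO_26 by the rule of size (33.3%, against 2.39% of all features), with 0 lower. At an unadjusted p under 0.05, limma had 19 higher and 0 lower, against 3244 higher and 1985 lower of all 23326 features. Over the 27 unsaturated genes the median difference was 0.79, against 0.03 over all unsaturated features, and 25 were higher. The median remained positive under every scaling tried, from 0.50 with the authors' deposited matrix to 0.86 with normexp. WT lay nearer to TKO_26 than to TKO_29 for all 13.

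The 2 members that rose are shown, each with a family member whose brightest probe gave a smaller difference. The upstream sequence is given for each, from RefSeq, assembly GRCm38.p6, 5′ to 3′ on the gene's strand and ending at the base before the annotated start. Matches to the CCAAT box (CCAAT) and the TATA box (TATAAA), each searched on both strands, are in capitals. The motifs do not overlap in these stretches. H1f4 is at chr13:23622559-23622708 on the minus strand, H1f2 at chr13:23738657-23738806 on the plus strand, H4c3 at chr13:23698459-23698608 on the minus strand and H4c9 at chr13:22041363-22041512 on the minus strand.
H1f4: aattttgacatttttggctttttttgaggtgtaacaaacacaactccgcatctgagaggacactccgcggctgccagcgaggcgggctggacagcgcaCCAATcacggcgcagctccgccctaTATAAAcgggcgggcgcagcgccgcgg
H1f2: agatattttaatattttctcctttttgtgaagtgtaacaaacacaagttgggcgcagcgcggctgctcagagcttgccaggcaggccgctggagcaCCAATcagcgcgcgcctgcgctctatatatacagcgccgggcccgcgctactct
H4c3: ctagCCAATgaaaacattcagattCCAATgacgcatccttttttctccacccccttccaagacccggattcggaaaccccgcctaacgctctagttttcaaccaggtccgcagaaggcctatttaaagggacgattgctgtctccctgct
H4c9: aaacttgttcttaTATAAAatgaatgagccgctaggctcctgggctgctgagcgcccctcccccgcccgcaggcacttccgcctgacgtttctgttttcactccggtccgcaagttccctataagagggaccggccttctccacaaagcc

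Over 35 promoters of 34 of the histone genes tested, 85.7% held CCAAT in these 150 bases and 48.6% held TATAAA. Of 32851 promoters in the table, 24.5% and 7.57% did. CCAAT stood upstream both of H1f4, which rose, and of H1f2, which differed by 0.00.

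H1f4, a linker histone, was at 1.40 and 1.21 in TKO_26, -0.15 and -0.34 in TKO_29, and 1.45 and 1.31 in WT. It was 2.92-fold higher in TKO_26 (log2 difference 1.55, SE 0.15, limma adjusted p = 0.0489), and TKO_29 stood alone. Its family member H1f2 was at -1.85 and -1.95 in TKO_26, -1.90 and -1.89 in TKO_29, and -1.70 and -1.85 in WT, a difference of 0.00 (SE 0.13, limma adjusted p = 0.993). The core histone H4c3 was at -2.61 and -2.87 in TKO_26, -4.65 and -4.96 in TKO_29, and -2.54 and -2.86 in WT. It was 4.17-fold higher in TKO_26 (log2 difference 2.06, SE 0.20, limma adjusted p = 0.0497). For H4c9 the arrays read -2.66 and -2.76 in TKO_26, -3.09 and -2.83 in TKO_29, and -3.34 and -3.46 in WT, a difference of 0.25 (SE 0.15, limma adjusted p = 0.339). A second H4c9 probe, nearly as bright, gave 1.31, with -2.66 and -2.75 in TKO_26 against -3.78 and -4.23 in TKO_29, so the probes of H4c9 disagreed. H1f2 had 1 probe.

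The largest histone difference was that of H2bc18, at -0.14 and -0.77 in TKO_26, -3.04 and -3.77 in TKO_29, and -0.06 and -0.68 in WT. It was 7.71-fold higher in TKO_26 but did not pass the test (limma adjusted p = 0.0522). H3c7 was at -3.63 and -4.49 in TKO_26 and -6.28 and -6.83 in TKO_29, a 5.64-fold difference (limma adjusted p = 0.0541). H3c13 was at 0.45 and 0.10 in TKO_26 and -1.51 and -1.93 in TKO_29, a 3.98-fold difference (limma adjusted p = 0.0521). All 3 had their WT arrays nearer to TKO_26. Histone genes of a family are near copies of each other, so a probe may read several of them. Of the 39, 12 were saturated on at least 1 TKO array.

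The gene for SLBP itself, which binds the histone stem-loop, went the other way without passing the test. Slbp was at -2.12 and -1.21 in TKO_26, -0.06 and 0.03 in TKO_29, and -2.92 and -1.82 in WT. The difference was -1.66 (SE 0.47, limma adjusted p = 0.141), and a second probe gave -1.80. Lsm10 and Lsm11, subunits of the U7 particle that cuts histone pre-mRNA, differed by -0.04 and 0.01, and Casp8ap2, a factor for histone transcription, by -0.08. A second Casp8ap2 probe gave -0.62.

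**Figure D3:**
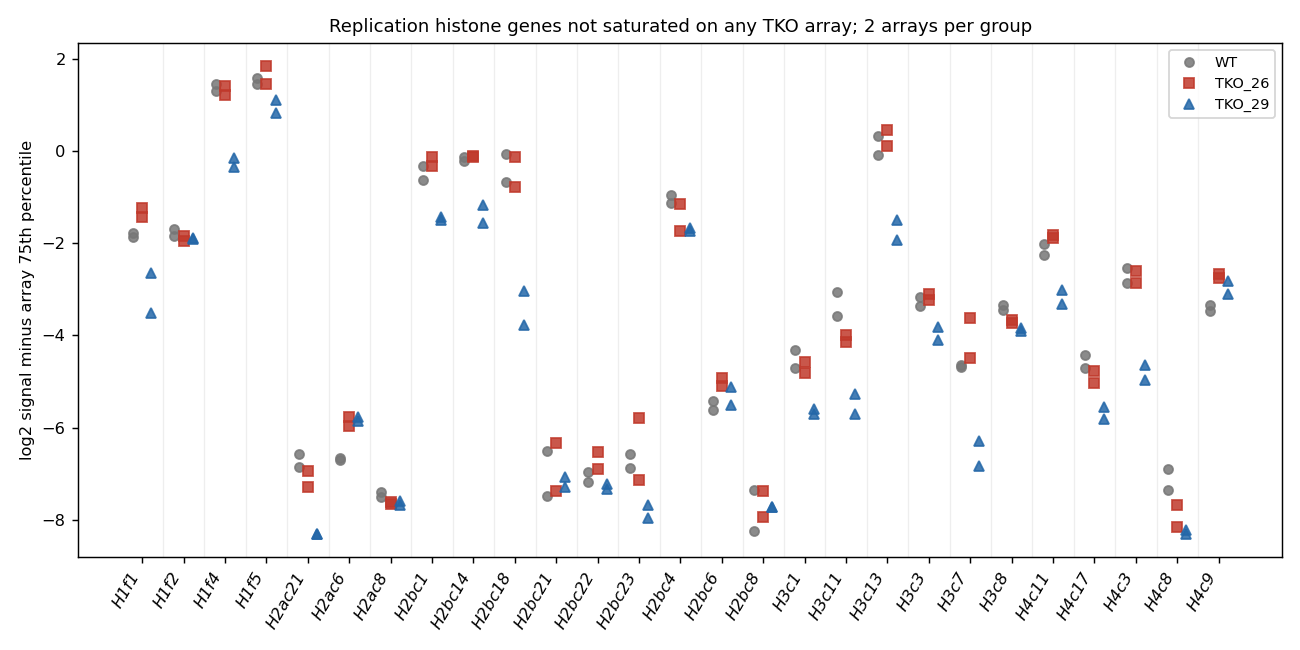
The log2 level of each of the 27 replication histone genes that were not saturated on any TKO array is shown for the 6 arrays, with 2 points per group. TKO_29 (triangles) lies below both other groups for genes such as H1f4, H2bc18, H3c13 and H4c3, and beside TKO_26 for H1f2, H3c8 and H2ac8.

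Structured non-coding RNAs, another set chosen after its values were seen, were also often higher in TKO_26. These RNAs act in splicing, RNA processing and telomere upkeep, and most lack a poly(A) tail. Of 10 tested, 1 rose by the test. By the rule of size, 4 were higher in TKO_26 (40%, against 2.39% of all features) and none lower. At an unadjusted p under 0.05, limma had 7 higher and 0 lower, against 3244 higher and 1985 lower of all 23326 features. The median over the 8 unsaturated was 1.21. Rnu1b6, a U1 small nuclear RNA of the spliceosome, was at 0.64 and 0.52 in TKO_26, -1.38 and -1.64 in TKO_29, and 0.80 and 0.93 in WT. It was 4.27-fold higher in TKO_26 (SE 0.15 on the log2 scale, limma adjusted p = 0.0489), with TKO_29 alone low. Rnu2-10, a U2 small nuclear RNA, was at -2.30 and -3.16 in TKO_26, -5.19 and -5.55 in TKO_29, and -3.48 and -3.29 in WT (6.22-fold, limma adjusted p = 0.0517). U1 and U2 RNAs exist in many near-identical copies, so a probe may read several.

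Rmrp, the RNA of RNase MRP, was at -1.67 and -1.97 in TKO_26, -3.03 and -3.13 in TKO_29, and -1.69 and -2.00 in WT (2.39-fold, limma adjusted p = 0.057). The box H/ACA RNA Snora74a was 2.24-fold higher, the U3 RNA Rnu3b1 1.91-fold higher and Terc, the telomerase RNA, 2.52-fold higher, with limma adjusted p of 0.0541, 0.0612 and 0.0783. For Snora74a, Rnu3b1 and Terc the arrays of the lines did not overlap. WT was nearer to TKO_29 for Snora74a (-2.96 and -3.32) and Terc (-8.54 and -8.54). Terc was not well above background in WT, and was so on 1 of the 2 arrays of TKO_26, so its values are uncertain. Over the 8 unsaturated RNAs, WT lay a median of 0.47 above TKO_29 and its median difference from TKO_26 was -0.54. The exception was Rnu12, of the minor spliceosome, at -2.94 and 0.63 in TKO_26 and 0.92 and 0.62 in TKO_29. Its low value was on TKO_26 replicate 1 alone.

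Features named only by a position made up 61 of the 85 features called higher and 0 of those called lower. At an unadjusted p under 0.05, 1137 of 4336 were higher and 229 lower, against 3244 and 1985 of all 23326 features. The array design names these 4336 features by a genomic interval and a letter, F or R, on mm9 (NCBI37), with no gene. By the rule of size, 379 were higher in TKO_26 (8.74%, against 2.39% of all features) and 11 were lower (0.254%). For 337 of the 379 (88.9%), WT lay nearer to TKO_26. Among other protein-coding genes 51 of 13958 were higher (0.365%) and 74 lower (0.530%). The tail held under other scalings, with 219 higher and 0 lower by normexp, 194 and 1 with the authors' matrix, and 291 and 113 by quantile normalisation. The median of the unsaturated features did not hold, at 0.23 with the percentile scaling, -0.13 by quantile normalisation and -0.06 with the authors' matrix.

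**Figure D4:**
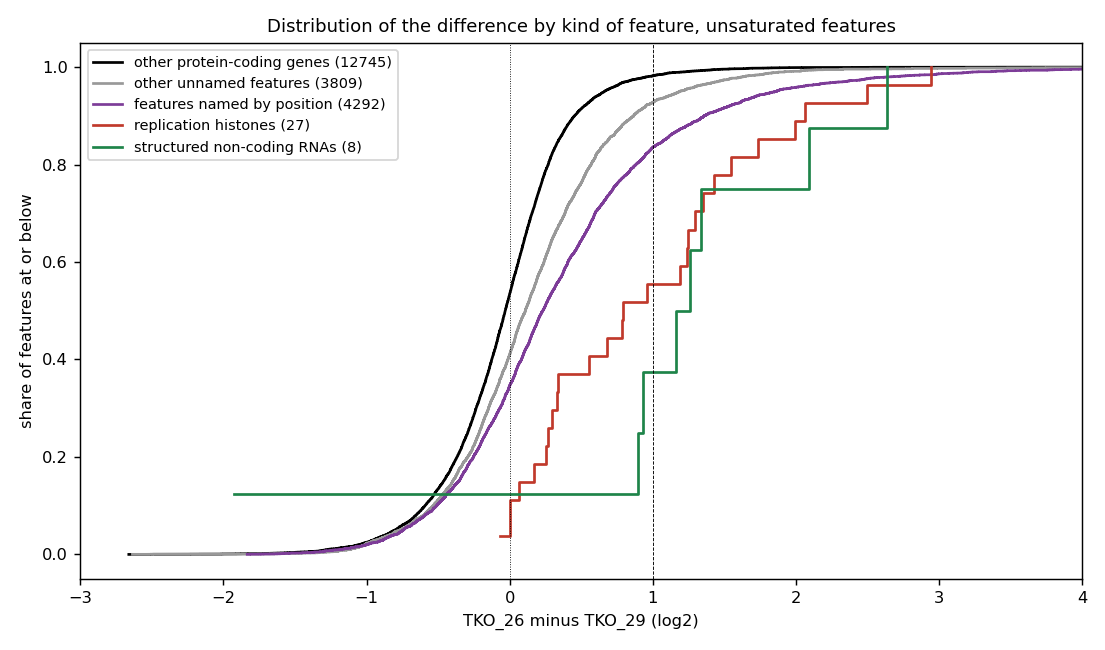
The cumulative share of unsaturated features at or below each log2 difference TKO_26 minus TKO_29 is drawn by kind of feature, with the number of features in brackets; the dashed line marks 2-fold. Protein-coding genes centre near 0, features named by position have a long tail to the right, and histone genes and structured RNAs lie furthest right.

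Some intervals held several features that were apart. The 4336 features fell in 1815 intervals, of which 264 had at least 1 feature apart by the rule of size. Of the 1048 intervals with at least 2 features tested, 75 had at least 2 apart. In chr8:74473445-74496948 a feature at -1.65 and a feature at 1.34, of opposite letters, were apart in opposite directions. In 12 of them features of both letters were apart. In chr6:83541250-83560425 all 5 features tested were apart, with differences from 2.82 to 3.47. The interval's mean level was -1.37 and -2.37 in TKO_26, -5.15 and -4.80 in TKO_29, and -0.15 and -1.28 in WT, so TKO_29 alone was low. In chr2:153643200-153654975 all 5 were apart, with means of -5.14 and -6.07 in TKO_26 and -8.51 and -8.03 in TKO_29. In chr17:24152225-24169870, 6 of 7 were apart, with a median difference of 2.36 and the seventh at -0.17. Whether the probes of an interval read 1 transcript was not tested, so they are not counted as separate observations. A feature of chr12:55844075-55898175 is an example of those called, at -4.31 and -4.87 in TKO_26, -8.58 and -8.55 in TKO_29 and -3.84 and -4.52 in WT, which is 15.7-fold (limma adjusted p = 0.0489). It was the only feature apart of the 6 tested in its interval, where 3 were higher in TKO_26 and the median difference was 0.08.

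Over the 558 features higher in TKO_26 by the rule of size, the WT mean was nearer to TKO_26 for 479 (85.8%). Over the 98 lower, it was nearer to TKO_26 for 77 (78.6%). In both directions, then, TKO_29 was more often the group that stood apart from the other 2. By the position digits the WT arrays lay in rows 1 and 2, as those of TKO_26 did. Here and above, nearness of WT to TKO_26 and a shared row cannot be told apart.

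Genes of germ layers, signalling and stress were read from lists. Of 752 genes in 39 lists, 586 were tested. limma called 0 of them. At an unadjusted p under 0.05 it had 73 higher and 44 lower. It had 3244 and 1985 of all 23326 features, and 1347 and 1507 of the 14388 genes with a symbol. With a variance trend it called 3, with the authors' matrix or detection on all TKO arrays 1, and without TKO_26 replicate 2 it called 10. Over the 516 unsaturated genes the median difference was 0.02, 13 were at least 2-fold higher in TKO_26 (2.52%) and 4 at least 2-fold lower (0.775%). With saturated genes included, 23 of the 586 were at least 2-fold higher and 4 lower. With saturated ones likewise included, 353 of 13958 other protein-coding genes were higher and 319 lower. Of the 516, 192 lay at least 2-fold from WT on the same side in both lines, a comparison in which both lines share the WT arrays. The share over all features is not given here, so this count is no result about the lists.

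Pluripotency genes were a little higher in TKO_26, with a median of 0.30 over 21 genes and 14 of them higher. Nanog was at -0.63 and -1.07 in TKO_26, -1.47 and -1.29 in TKO_29, and -3.34 and -2.94 in WT. Pou5f1, which encodes the core factor OCT4, was at 0.12 and 0.41 in TKO_26, 0.64 and 0.66 in TKO_29, and -0.01 and 0.10 in WT. The lines thus differed in opposite senses for the 2 genes, by 0.53 and -0.38 (limma adjusted p = 0.25 and 0.22), and both lay above WT. Germline genes had a median of 0.30 over 19 genes, led by Stra8, a gene of meiotic entry, at 0.76 (limma adjusted p = 0.12). Trophoblast genes had a median of 0.42 over 15 (0.19 with the authors' matrix), led by the placental hormone gene Prl3b1. Prl3b1 was at -7.33 and -7.48 in TKO_26, -8.60 and -8.24 in TKO_29, and -0.15 and -0.19 in WT. In TKO_26 it was well above background on 1 of the 2 arrays.

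Genes of the 2-cell embryo had a median of 0.68 over 7 (0.38 by quantile normalisation and 0.17 with the authors' matrix), though the Zscan4 genes among them are near copies that a probe may not tell apart. Zscan4a was at -6.28 and -6.09 in TKO_26, -7.14 and -7.29 in TKO_29, and -8.84 and -8.38 in WT (2.04-fold between lines, limma adjusted p = 0.085). It was not well above background in WT, and was so on 1 of the 2 arrays of TKO_26. Hox genes had a median of 0.53 over 12, which turned to -0.20 by quantile normalisation and -0.06 with the authors' matrix. Hoxb13 led at 1.46 (limma adjusted p = 0.203).

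Markers of heart muscle, blood and vessel cells had medians near 0 between the lines and medians below WT in both. The sign of these medians between the lines turned with the scaling, to -0.07 for cardiac, -0.18 for endothelial and -0.22 for blood genes by quantile normalisation. Cardiac muscle genes had a median of 0.09 between lines over 22 genes, and medians of -3.41 in TKO_26 and -3.62 in TKO_29 relative to WT. Endothelial genes had medians of 0.06, -3.78 and -2.89 over 15, and blood genes 0.00, -1.38 and -1.34 over 10. Within endothelium, Kdr, the VEGF receptor, was at -1.79 and -2.27 in TKO_26 and -3.51 and -3.25 in TKO_29 (2.55-fold, limma adjusted p = 0.0933), yet its other probe gave 0.17 and was low in both lines against WT. Neural genes had a median of -0.17 over 20 (0.15 with normexp), and genes of visceral and definitive endoderm 0.07 over 20.

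Only Hey2, a target of Notch, was apart by the rule of size among the listed genes. It was at -6.04 and -5.89 in TKO_26, -4.70 and -4.69 in TKO_29, and -4.98 and -4.47 in WT (2.41-fold lower in TKO_26, limma adjusted p = 0.0652). For other listed genes at least 2-fold apart by line means, the nearest arrays of the lines were under 2-fold apart. Mcidas, a regulator of multiciliated cells, was at -2.22 and -2.80 in TKO_26 and -4.62 and -3.67 in TKO_29. The integrin gene Itgam was at -2.61 and -3.10 in TKO_26 and -4.86 and -3.93 in TKO_29, while the macrophage list as a whole had a median of 0.06 over 6 genes (-0.06 by quantile normalisation). Spp1, which encodes osteopontin, was at -0.07 and 0.17 in TKO_26 and 1.12 and 0.98 in TKO_29. Ier2, an immediate early gene, was at -2.99 and -2.67 in TKO_26 and -1.89 and -1.42 in TKO_29. The BMP antagonist Grem1 was at -3.42 and -3.46 in TKO_26 and -2.56 in both arrays of TKO_29 (1.84-fold lower in TKO_26, limma adjusted p = 0.0522).

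Saturation moved with the differences of abundant transcripts. In the list of hypoxia and glycolysis genes, 12 of 24 tested were saturated on at least 1 TKO array, and 7 were at least 2-fold higher in TKO_26 with those included. The 12 unsaturated members had a median of -0.22, none was 2-fold apart and 1 was higher. Cholesterol synthesis genes had a median of -0.26 over 13 unsaturated members, with 2 higher.

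**Figure D5:**
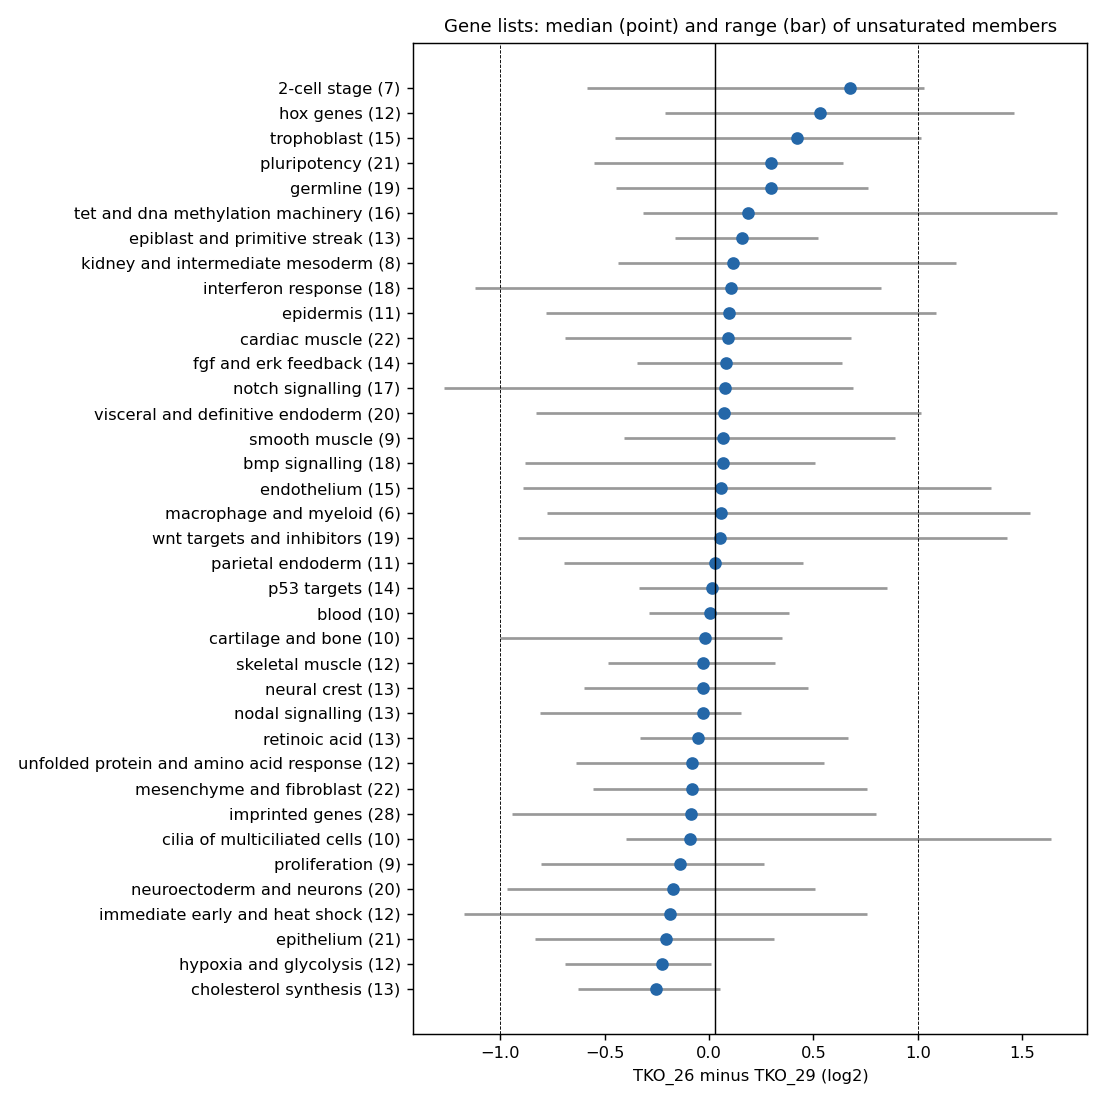
For each gene list with at least 5 unsaturated members (number in brackets), the point is the median log2 difference TKO_26 minus TKO_29 and the bar runs from the lowest to the highest member; the solid line is the median of all unsaturated features and dashed lines mark 2-fold. Medians run from -0.26 for cholesterol synthesis to 0.68 for genes of the 2-cell embryo.

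Medians by chromosome lay within 0.1 of that of all genes, except on Y. Over 13134 unsaturated genes with a symbol the median difference was -0.03, and the medians of single chromosomes other than Y ran from -0.10 on chromosome 12 to 0.02 on chromosome 7. The 5 genes of chromosome Y had a median of -0.34 between the lines. Among them, Ddx3y was at -1.76 and -1.75 in TKO_26 and -1.61 and -1.81 in TKO_29, against -4.56 and -4.57 in WT.

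Where several probes read a gene, wide differences were seldom shared by all of them. Of 3641 such genes, saturated probes included, 218 had at least 1 probe that was 2-fold higher in TKO_26, and 9 were 2-fold higher on every probe. At least 1 probe was 2-fold lower in 271 genes, and every probe in 9. In 4 genes the probes disagreed by at least 2-fold each way.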

How the data were processed

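The 6 arrays were grouped by their titles. Agilent Feature Extraction 10.5.1.1, per the file headers, produced the scanner tables, in which the processed intensity of a spot has its background subtracted and is not normalised between arrays. A matrix of log2 values deposited by the authors served as an alternative, and no source used here describes its steps. Its columns followed the scanner values of their own arrays (Pearson r 0.995 to 1.00, across probes), but that of TKO_29 replicate 1 correlated equally with another array (0.9962 and 0.9963), and column medians were 6.86 to 6.89. Its scale was log2, uncentred.

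Control spots and outlier flags were dropped, spots of a probe averaged, and log2 signals scaled by array to the 75th percentile of the 19193 probes that passed the background test on all 6 arrays. Probes (49.4% of 55681) were named through RefSeq accessions. The brightest probe stood for a gene. limma 3.58.1 (R 4.3.3) fitted 6 arrays in 3 groups (3 residual degrees of freedom) with Benjamini-Hochberg adjustment. It was also run on simulated arrays of independent normal noise with added changes, without saturation, a background floor or array effects. That run checked only that the fit returns an added change, so it is no support for the calls. The scanner files used here hold no mean signal, so normexp (offset 50) took median signals.

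Genes named were the Tet genes, 12 per direction with a symbol other than a clone name (called, then apart by the rule of size, by size or bound), and members of lists that were at least 2-fold apart or the largest. Histone genes, structured RNAs and position features were added after seeing their values, as were the gene examples outside that rule (Nanog, Pou5f1, the clone-named genes, H1f2, H4c9 and the U7 and RNase MRP components). All members and lists were chosen with earlier results of these data known. The correlation of deviations between arrays of the same replicate number was -0.24, so numbers were not taken as pairs. Precision is limited by the number of arrays.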

Additional observations from a re-analysis of the deposited data

How the results depend on the processing

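The 24 genes named by rule kept their sign in every alternative that tested them (14 of them when detection on all TKO arrays was required), but the counts did not hold. All 24 were apart by the rule of size, so leaving out an array could not change a sign. Alternatives that changed only the test, such as the variance trend or the replicate block, left the differences as they were. Called features, higher and lower, were 551 and 99 with a variance trend, 155 and 21 with array weights, 257 and 30 with the percentile over all probes, 303 and 62 with the authors' matrix, 425 and 62 with detection on all TKO arrays, and 158 and 17 with the mean over probes. limma called 0 each way on the TKO arrays alone (5091 at an unadjusted p under 0.05), with normexp (4353), with quantile normalisation (5015), with no filter (6063) and with the replicate block (4526). Alternatives added after seeing the data gave 377 and 57 without saturated probes and 0 for genes with a symbol alone (3314). A crossed pairing of replicate numbers called 0 (6997). Leaving out 1 TKO array gave 0 to 594 higher and 0 to 264 lower. Features apart by the rule of size were 313 higher and 14 lower with normexp, 275 and 36 with the authors' matrix, 42 lower with detection on all TKO arrays, 2921 higher with no filter, 75 higher for genes with a symbol alone, and 401 higher and 433 lower with quantile normalisation (48.1% higher, against 85.1%). Leaving out 1 array gave 746 to 2096 higher and 132 to 745 lower. By line means, quantile normalisation gave 24.5% higher, against 76.0%. The median of all features moved by 0.22 with normexp, -0.15 with quantile normalisation and -0.12 with the authors' matrix. It moved most with no filter, by 0.79, where 22525 features were at least 2-fold higher by line means and 510 lower. The cause of these shifts was not tested. Dim signals limit the comparison: the lowest signal well above background was -7.27 on TKO_26 replicate 1 and -9.16 to -10.02 on the other TKO arrays. The features tested were also split into 8 groups by mean TKO signal. In groups 1 to 3, the dimmest, 204, 428 and 276 features were at least 2-fold higher by line means and 96, 102 and 91 lower.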

Other observations

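Some genes outside the groups above differed at least 2-fold by line means on both probes that read them. Virma, a subunit of the RNA methylation complex, was at -4.11 and -4.09 in TKO_26 and -2.97 and -2.59 in TKO_29, and its 2 probes gave -1.32 and -1.30. Stk26, a serine/threonine kinase, was at -4.95 and -4.79 in TKO_26 and -3.67 and -3.41 in TKO_29, with -1.33 and -1.30 on its 2 probes. Tcf7l2, a transcription factor of the Wnt pathway, was at -3.69 and -3.91 in TKO_26, -4.97 and -4.93 in TKO_29 and -2.39 and -2.86 in WT, with 1.06 and 1.15 on its probes. None was called. These genes were picked after their values were seen.

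Features with accession names and no symbol held further wide differences. NR_003278 was at 3.37 and 2.77 in TKO_26, where it was saturated on both arrays, 0.34 and 0.11 in TKO_29, and 2.76 and 3.07 in WT, at least 7.17-fold higher in TKO_26 (limma adjusted p = 0.0489). NR_003280 was at -4.17 and -4.24 in TKO_26, -7.31 and -7.46 in TKO_29, and -6.09 and -5.23 in WT, 9.10-fold higher in TKO_26 (limma adjusted p = 0.0489). NM_030731, the called feature lower in TKO_26 that has no symbol here, was at -6.44 and -6.23 in TKO_26 and -4.87 and -4.72 in TKO_29.

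The lines lay on the same side of WT on chromosome 8. Its median gene lay 0.47 above WT in TKO_26 and 0.51 above WT in TKO_29, and differed by -0.03 between the lines over 686 genes. Over all chromosomes the medians against WT were 0.01 and 0.02.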
